A study of Arabidopsis thaliana with 15 samples.

Results

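The pollen MIKC-star MADS genes are 5 Arabidopsis thaliana genes, AGL30 (AT2G03060), AGL65 (AT1G18750), AGL94 (AT1G69540), AGL66 (AT1G77980) and AGL104 (AT1G22130). They were taken by gene identifier from a table of 33323 genes, and were chosen with earlier results of these data known. All 5 were found and all 5 passed the filter on low counts, which left 22411 genes for testing. RNA was measured by RNA-seq in unopened flowers of 5-week-old plants, all in the Col0 background. The groups were elf6-3ref6Cjmj13G, elf6-3ref6C, ref6C, ref6-3 and the wild type (WT), with 3 libraries each. REF6, ELF6 and JMJ13 are jumonji demethylases that remove a repressive methyl mark which the Polycomb system sets on histones. The allele ref6C is alone in the ref6C plants and is shared by elf6-3ref6C and elf6-3ref6Cjmj13G; elf6-3 is shared by these last genotypes, and jmj13G is in elf6-3ref6Cjmj13G alone. The plants of ref6-3 carry the other REF6 allele. The sources used here do not give what each allele changes in its gene, nor the number of plants behind a library. Replicate numbers are not tied to separate plants, so the p-values reflect variation among libraries that could be technical in part or in full.

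MADS-box proteins bind DNA as dimers. The better known MIKC-c type includes the floral organ identity factors, while in Arabidopsis most MIKC-star genes are expressed mainly in pollen. Their proteins fall into a P class, here AGL30, AGL65 and AGL94, and an S class, here AGL66 and AGL104, and the DNA-binding complexes of pollen pair a P protein with an S protein. Plants that lack several of these proteins have disturbed expression of late pollen genes and pollen that germinates and competes poorly. AGL67 is a further S-class gene best known from seeds.

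In the RefSeq annotation of TAIR10.1, AGL30 lies at chr2:901061-904149 on the plus strand and AGL65 at chr1:6466667-6469984 on the plus strand. AGL94 lies at chr1:26145001-26147751, AGL66 at chr1:29314841-29317186 and AGL104 at chr1:7812211-7814345, all on the minus strand. AGL30 and AGL65 have 11 exons each, and AGL94, AGL66 and AGL104 have 10 each, in the transcript with the longest coding sequence. The encoded proteins have 386 residues in AGL30, 413 in AGL65, 367 in AGL94, 332 in AGL66 and 335 in AGL104. None of the 5 genes overlaps another annotated gene.

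The classes were visible in the coding DNA of the MADS box. Over the first 180 bases of coding sequence, which spell the first 60 codons, AGL66 and AGL104 were identical at 86.1% of positions. Within the P class the values were 75.0% for AGL30 and AGL94, 70.0% for AGL30 and AGL65, and 68.3% for AGL65 and AGL94. Pairs of a P and an S member lay between 61.1% and 66.7%. The longest run of identical bases between transcripts, untranslated parts and the reverse strand included, shows how far reads of one member could fit another. It was 38 bases in AGL66 and AGL104, starting at coding base 721 of AGL66 and coding base 736 of AGL104, and 12 to 15 bases in the other pairs of members. How reads that fit several genes were counted is not stated in the labels or headers.
AGL66 and AGL104 shared run: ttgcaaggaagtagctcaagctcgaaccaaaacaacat

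The 250 bases before the annotated start are shown for AGL94, AGL66 and AGL104, the members that changed most. They are read 5′ to 3′ on the minus strand of TAIR10.1, at chr1:26147752-26148001, chr1:29317187-29317436 and chr1:7814346-7814595. Capitals mark a match to the MEF2-type CArG box, the kind of site that MIKC-star dimers of pollen are known to bind; both strands were searched. Of the 5 members, AGL104 alone had a match in this window, and 2.15% of the 27443 gene windows of this length had one. The AGL104 window also covers an exon of the noncoding gene AT1G05717.
AGL94: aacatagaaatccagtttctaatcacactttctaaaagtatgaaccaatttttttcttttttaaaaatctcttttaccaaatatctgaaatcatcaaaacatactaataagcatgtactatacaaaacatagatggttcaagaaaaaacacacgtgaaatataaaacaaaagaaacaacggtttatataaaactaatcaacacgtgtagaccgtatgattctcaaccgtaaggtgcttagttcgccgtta
AGL66: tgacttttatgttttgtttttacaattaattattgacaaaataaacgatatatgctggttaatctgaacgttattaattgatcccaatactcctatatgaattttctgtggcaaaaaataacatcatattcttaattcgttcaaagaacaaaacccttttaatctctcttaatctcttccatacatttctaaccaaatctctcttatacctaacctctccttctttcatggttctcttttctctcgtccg
AGL104: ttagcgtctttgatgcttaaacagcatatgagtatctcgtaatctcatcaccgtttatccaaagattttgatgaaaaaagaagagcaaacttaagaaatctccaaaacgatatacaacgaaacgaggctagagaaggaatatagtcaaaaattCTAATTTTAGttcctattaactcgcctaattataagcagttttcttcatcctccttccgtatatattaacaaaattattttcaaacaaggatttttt

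REF6 carries zinc fingers that bind a short DNA motif, searched here in 4 spellings, CTCTGCTC, CTCTGCTT, CTCTGTTC and CTCTGTTT, on both strands. It was not found in the 250-base window of any of the 5 members, against 5.77% of all windows with a match. Within the genes AGL94 held 4 matches, AGL65 held 4, AGL30 held 1, and AGL66 and AGL104 held 0. This is 1.45 matches per kilobase in AGL94 and 1.21 in AGL65, against 0.432 over all 27444 genes. Among genes of 0.8 to 1.25 times the same length, 6.16% had at least as many matches as AGL94 and 7.66% at least as many as AGL65. A match describes letters only; no binding was measured in these libraries. The sites in AGL65 and AGL94 are shown because these members share a class and a motif count and differed in their changes over WT; capitals mark the motif and the letters are those of the strand that carries it. Those of AGL65 lie at chr1:6466743-6466770 and chr1:6466947-6466974 (untranslated exon, plus strand), chr1:6467717-6467744 (intron, minus strand) and chr1:6469147-6469174 (coding exon, minus strand).
AGL65 site a: tgagctttctCTCTGTTCcaccattaat
AGL65 site b: tttttgtttcCTCTGTTTctgctgcgaa
AGL65 site c: aaaaactaggCTCTGTTTtagagtctct
AGL65 site d: ccatccatctCTCTGTTTgaaaccagta
Those of AGL94 are all on the minus strand and lie at chr1:26147422-26147449 (untranslated exon), chr1:26146674-26146701 and chr1:26146487-26146514 (introns), and chr1:26145030-26145057 (untranslated exon).
AGL94 site a: tttccaaaagCTCTGTTTttttttgttg
AGL94 site b: tggttcttggCTCTGTTTagtctctctt
AGL94 site c: tgaactctttCTCTGTTTgttcttgttt
AGL94 site d: atgcgtttacCTCTGCTTacgcatctat

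Total counts per library lay between 26009591 and 34140165. In ref6C replicate 3, 29547 genes had a count, against 25055 to 25712 genes in the other 14 libraries, and the ref6C results are therefore also given without it. The genes named in the mutants were lower where they are named. REF6 was at 36.1 ± 1.66 CPM (the count relative to library size after TMM scaling; SD, n = 3) in elf6-3ref6Cjmj13G, 36.9 ± 2.28 in elf6-3ref6C, 36.3 ± 0.491 in ref6C and 32.9 ± 1.43 in ref6-3, against 69.4 ± 1.94 in WT. ELF6 was at 8.67 ± 1.03 CPM in elf6-3ref6Cjmj13G and 2.53 ± 0.138 in elf6-3ref6C, against 61.3 ± 0.696 in WT. AT5G46910, a jumonji family gene taken here as JMJ13, was at 9.04 ± 0.399 CPM in elf6-3ref6Cjmj13G and 24.8 ± 0.535 in WT. Of 17 anther and tapetum genes, 12 floral MIKC-c MADS genes and 16 mature pollen genes, none was at 0 throughout any genotype. Other lists did have such genes. Of 3 sperm cell genes these were 1 in elf6-3ref6C, 1 in ref6C and 2 in ref6-3. There was also 1 of 7 early pollen genes in elf6-3ref6C and 1 of 13 pollen regulators in WT. A count above 0 at this depth is a weak check of the tissue label.

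Among the 5 genes, AGL30 made up the largest part of the transcript in every genotype. On the authors' FPKM scale, which allows for transcript length, it averaged 11.8 ± 0.430 in elf6-3ref6Cjmj13G, 11.1 ± 0.559 in elf6-3ref6C, 14.6 ± 0.221 in ref6C and 12.8 ± 0.438 in ref6-3, against 17.2 ± 0.161 in WT (SD, n = 3 each). In elf6-3ref6C the order below it was AGL65 at 4.93 ± 0.685 FPKM, AGL104 at 1.62 ± 0.173, AGL94 at 1.13 ± 0.15 and AGL66 at 0.490 ± 0.010, with no overlap between neighbours. In WT the order was AGL104 at 5.91 ± 0.127 FPKM, AGL65 at 4.62 ± 0.0814, AGL94 at 4.61 ± 0.404 and AGL66 at 2.41 ± 0.242. AGL65 and AGL94 did not differ beyond their spread there, with AGL65 over AGL94 at 0.940 to 1.08 in the 3 libraries, whereas AGL104 lay above both and AGL66 below both.

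AGL30, AGL94, AGL66 and AGL104 were lower than WT in ref6-3, elf6-3ref6C and elf6-3ref6Cjmj13G, and AGL65 was lower than WT in no mutant. In ref6C, AGL30 and AGL66 were lower, AGL65 was higher, and AGL94 and AGL104 did not pass the test. In counts, 5 of 5 members passed in elf6-3ref6Cjmj13G (4 lower, 1 higher), 4 of 5 in elf6-3ref6C (all lower), 3 of 5 in ref6C (2 lower, 1 higher) and 4 of 5 in ref6-3 (all lower). The test was edgeR's quasi-likelihood test, and a gene passed when its p, adjusted by Benjamini-Hochberg across the 22411 genes, was under 0.05. Replicates varied little. A large share of all genes passed the test: 66.4% of the tested genes in elf6-3ref6Cjmj13G, 68.5% in elf6-3ref6C, 38.8% in ref6C and 34.7% in ref6-3. Genes called lower made up 34.4% of those tested in elf6-3ref6Cjmj13G, 34.8% in elf6-3ref6C, 20.4% in ref6C and 18.5% in ref6-3, and genes called higher 32.0% in elf6-3ref6Cjmj13G and 18.4% in ref6C. AGL66, AGL94 and AGL104 were at least 2-fold lower in elf6-3ref6Cjmj13G, elf6-3ref6C and ref6-3, and 0 members were in ref6C. Calls of that size covered 10.1% of tested genes in elf6-3ref6Cjmj13G, 9.93% in elf6-3ref6C, 3.34% in ref6C and 4.99% in ref6-3. The median log2 fold change of the members was -1.29 in elf6-3ref6Cjmj13G, -1.84 in elf6-3ref6C, -0.23 in ref6C and -1.09 in ref6-3, and that of all tested genes lay between -0.0084 and 0.0039 in these comparisons. Each of the 4 comparisons uses the same WT libraries. In whole buds, fewer cells of a type and less RNA per cell cannot be told apart.

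**Figure D1:**
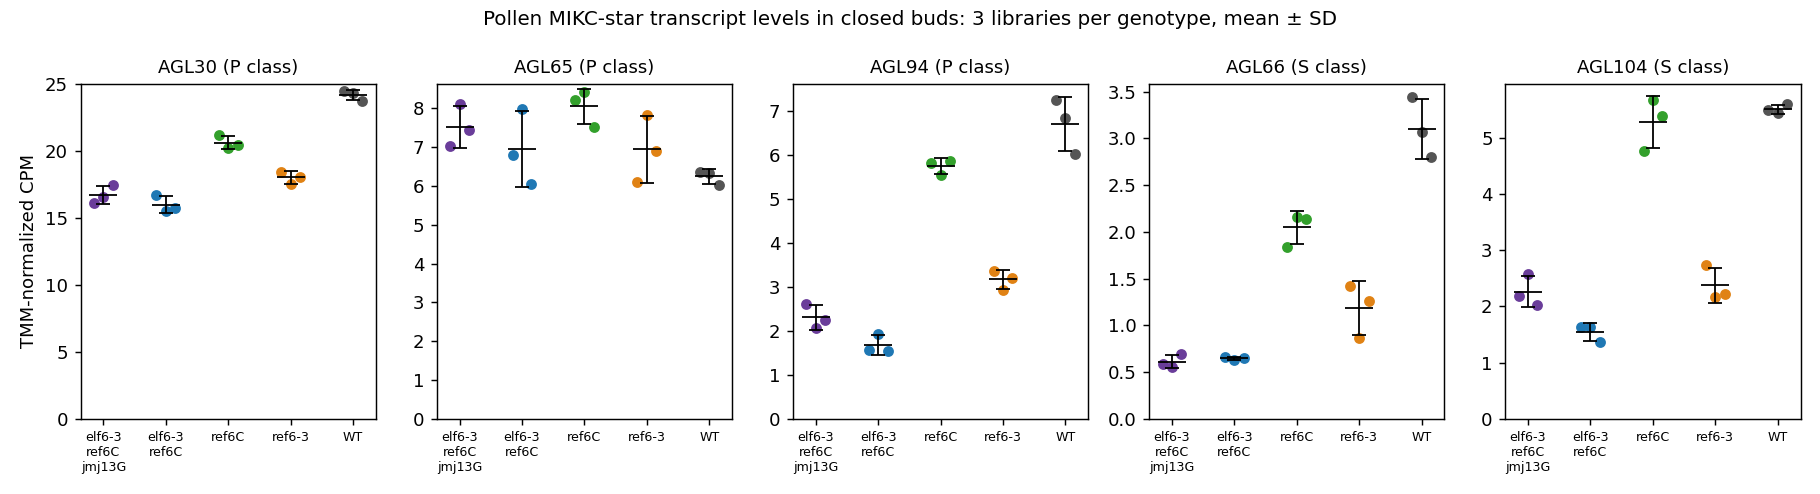
TMM-normalized CPM (y axis, from 0) of each of the 5 genes in every library, by genotype; points are libraries and bars the mean ± SD of 3. AGL66 lies between 0.550 and 0.687 CPM in elf6-3ref6Cjmj13G and between 2.80 and 3.44 in WT, while AGL65 overlaps between neighbouring genotypes.

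AGL30, the P-class gene with the most transcript, changed in steps of less than 2-fold. It was at 16.1, 16.5 and 17.4 CPM in elf6-3ref6Cjmj13G, 16.7, 15.5 and 15.7 in elf6-3ref6C, 21.2, 20.2 and 20.5 in ref6C, and 18.5, 17.5 and 18.1 in ref6-3, against 24.5, 24.3 and 23.7 in WT. All 12 mutant libraries lay below all WT libraries, and apart from elf6-3ref6Cjmj13G and elf6-3ref6C no neighbouring genotypes overlapped. Over WT, the log2 fold change was -0.53 ± 0.05 (SE) in elf6-3ref6Cjmj13G (edgeR adjusted p = 5.55e-11), -0.60 ± 0.05 in elf6-3ref6C (6.7e-12), -0.23 ± 0.04 in ref6C (0.000139) and -0.42 ± 0.05 in ref6-3 (2.02e-08).

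AGL65, a P-class gene of the same pollen complexes, did not fall below WT in any mutant. It was at 7.04, 8.11 and 7.43 CPM in elf6-3ref6Cjmj13G, 6.79, 7.99 and 6.05 in elf6-3ref6C, 8.21, 8.41 and 7.53 in ref6C, and 6.10, 7.82 and 6.91 in ref6-3, against 6.37, 6.34 and 6.03 in WT. The libraries of ref6C and elf6-3ref6Cjmj13G all lay above those of WT, whereas elf6-3ref6C and ref6-3 overlapped WT. The log2 fold change was 0.37 ± 0.10 in ref6C (edgeR adjusted p = 0.00358) and 0.26 ± 0.10 in elf6-3ref6Cjmj13G (adjusted p = 0.0191). The second of these calls ended without elf6-3ref6Cjmj13G replicate 2 (adjusted p = 0.0908) or WT replicate 3 (0.0564). In elf6-3ref6C the value was 0.14 ± 0.10 (adjusted p = 0.206), which passed without elf6-3ref6C replicate 3 (0.24, adjusted p = 0.0453), and in ref6-3 it was 0.15 ± 0.10 (adjusted p = 0.248).

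AGL94, the third P-class member, had a level of its own in each genotype. Its CPM was 2.62, 2.05 and 2.25 in elf6-3ref6Cjmj13G, 1.56, 1.93 and 1.54 in elf6-3ref6C, 5.82, 5.54 and 5.87 in ref6C, and 3.37, 2.93 and 3.21 in ref6-3, against 7.25, 6.84 and 6.03 in WT. No neighbouring genotypes overlapped, with elf6-3ref6C lowest, then elf6-3ref6Cjmj13G, ref6-3, ref6C and WT. Over WT, the log2 fold change was -1.54 ± 0.11 in elf6-3ref6Cjmj13G (edgeR adjusted p = 2.6e-12), -2.00 ± 0.12 in elf6-3ref6C (3.75e-14) and -1.09 ± 0.11 in ref6-3 (5.47e-09). In ref6C it was -0.23 ± 0.10 and did not pass (adjusted p = 0.0689), although the libraries did not overlap; leaving out WT replicate 3, the lowest of WT, gave -0.29 and adjusted p = 0.0357.

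AGL66, an S-class gene, was the least abundant member and had the largest fold changes over WT of the 5 in every mutant by edgeR. It was at 0.589, 0.550 and 0.687 CPM in elf6-3ref6Cjmj13G, 0.664, 0.632 and 0.648 in elf6-3ref6C, 1.84, 2.16 and 2.14 in ref6C, and 1.42, 0.862 and 1.26 in ref6-3, against 3.44, 3.07 and 2.80 in WT. WT stood above all mutants and ref6C above the other mutants; elf6-3ref6C and elf6-3ref6Cjmj13G overlapped each other at the bottom. The values there rest on 18, 15 and 22 reads in elf6-3ref6Cjmj13G and 17, 17 and 21 in elf6-3ref6C. Over WT, the log2 fold change was -2.34 ± 0.18 in elf6-3ref6Cjmj13G (edgeR adjusted p = 1.17e-11), -2.25 ± 0.18 in elf6-3ref6C (2.34e-11), -0.60 ± 0.15 in ref6C (0.002) and -1.40 ± 0.17 in ref6-3 (1.2e-07).

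AGL104, the other S-class gene, fell in every mutant but ref6C. It was at 2.19, 2.57 and 2.03 CPM in elf6-3ref6Cjmj13G, 1.64, 1.64 and 1.36 in elf6-3ref6C, 4.77, 5.68 and 5.40 in ref6C, and 2.73, 2.17 and 2.21 in ref6-3, against 5.50, 5.44 and 5.59 in WT. The libraries of elf6-3ref6C were lowest, those of elf6-3ref6Cjmj13G and ref6-3 overlapped above them, and those of ref6C and WT overlapped at the top. Over WT, the log2 fold change was -1.29 ± 0.12 in elf6-3ref6Cjmj13G (edgeR adjusted p = 2.48e-10), -1.84 ± 0.13 in elf6-3ref6C (8.23e-13) and -1.22 ± 0.12 in ref6-3 (3.92e-09). In ref6C it was -0.06 ± 0.10 (adjusted p = 0.686).

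Leaving out ref6C replicate 3 kept the calls of all 5 members in ref6C against WT. The log2 fold changes were then -0.22 for AGL30 (edgeR adjusted p = 0.00113), 0.41 for AGL65 (0.00353), -0.24 for AGL94 (0.0824), -0.63 for AGL66 (0.00326) and -0.08 for AGL104 (0.652). The authors' deposited table, whose sign was turned here to mutant over WT, gives the same direction for each member in each mutant. Its adjusted p-values fall on the same side of 0.05 except for AGL65 in elf6-3ref6Cjmj13G, where it has a log2 fold change of 0.26 and an adjusted p of 0.0526. That table leaves out ref6C replicate 3, while the calls it is set beside use all 15 libraries. Its fold changes were smaller for the members that fell most, for example -1.77 for AGL66 in elf6-3ref6Cjmj13G. In elf6-3ref6C the authors' deposited table puts AGL94 at -1.75 and AGL66 at -1.71, so AGL66 was not the member with the largest change there.

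**Figure D2:**
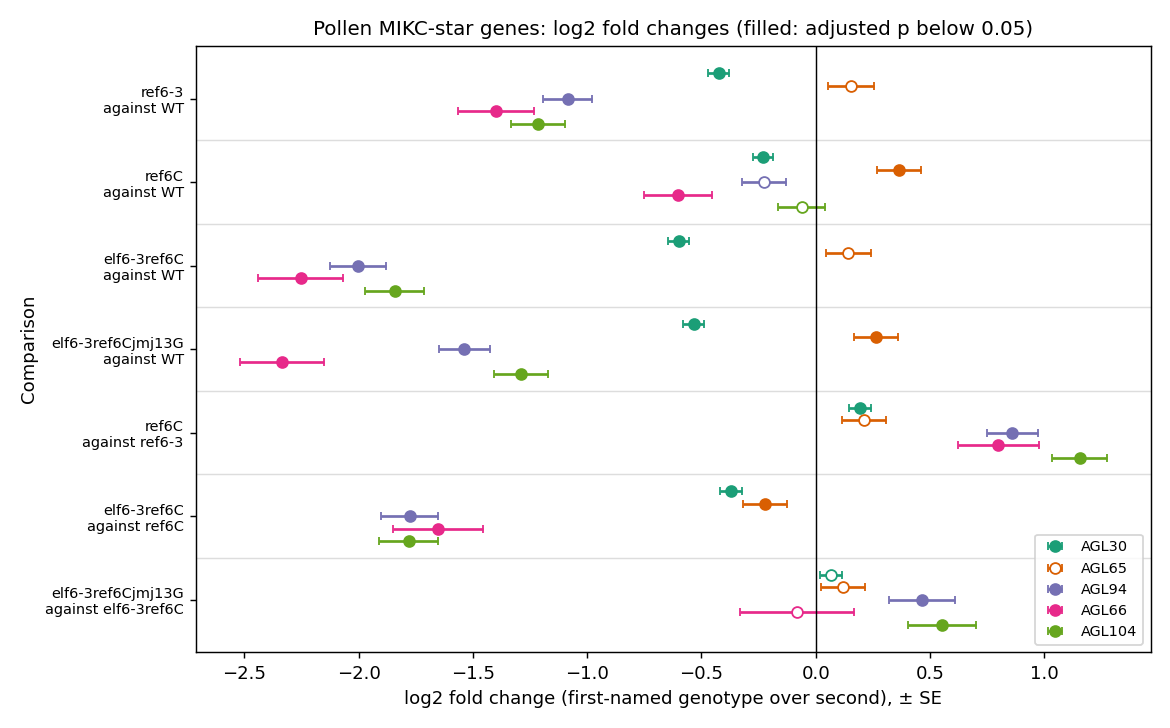
Log2 fold changes ± SE (x axis) of the 5 genes in the 7 comparisons (y axis), first-named genotype over second; filled points passed edgeR's test at an adjusted p below 0.05. AGL66, AGL94 and AGL104 lie at -1.09 or lower in ref6-3, elf6-3ref6C and elf6-3ref6Cjmj13G against WT, and AGL65 lies between 0.14 and 0.37 in all 4 mutants against WT.

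The REF6 alleles were next set against each other, to ask whether they leave the members at the same level. AGL30, AGL94, AGL66 and AGL104 were higher in ref6C than in ref6-3 and AGL65 did not pass, so 4 of 5 members were called, against 33.9% of all tested genes called and 17.2% called higher. AGL104 differed most, at 5.28 ± 0.465 CPM in ref6C and 2.37 ± 0.312 in ref6-3, a log2 fold change of 1.15 ± 0.12 (edgeR adjusted p = 1.26e-08). AGL94 followed at 0.86 ± 0.11 (5.54e-07), AGL66 at 0.80 ± 0.18 (0.00082) and AGL30 at 0.20 ± 0.05 (0.00183). For all 4 genes the libraries of ref6C lay above those of ref6-3, but no share over all genes is given for this. AGL65 had 0.21 ± 0.10 (adjusted p = 0.0949), which passed without ref6-3 replicate 2 (0.31, adjusted p = 0.0294). Without ref6C replicate 3, 4 members were called higher as well, AGL104 among them at 1.13. Of 16 mature pollen genes 12 were higher and 0 lower, with a median of 1.29 beside 0.80 for the members. Of 6 tested genes of microspores and early pollen 5 were higher and 1 lower, while 16 of 17 anther and tapetum genes were lower. The part of these lists in the member results was not tested.

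The comparison of elf6-3ref6C with ref6C asks what adding elf6-3 changes. All 5 members passed the test and were lower in elf6-3ref6C, where 61.2% of tested genes were called and 30.6% were called lower. AGL94 and AGL104 had log2 fold changes of -1.78 ± 0.12 and -1.78 ± 0.13, and AGL66 had -1.65 ± 0.20; edgeR's adjusted p-values were 1.29e-12, 3.05e-12 and 5e-08. These 3 were at least 2-fold lower, as were 5.70% of tested genes. AGL104, which was not called in ref6C against WT, was at 1.54 ± 0.161 CPM in elf6-3ref6C and 5.28 ± 0.465 in ref6C. AGL30 had -0.37 ± 0.05 (adjusted p = 1.82e-07). AGL65 passed narrowly at -0.22 ± 0.10 (adjusted p = 0.0477), with libraries that overlap, and that call ended with DESeq2 (adjusted p = 0.105), with the 6 libraries compared fitted alone (0.0518) and on leaving out any of 9 libraries (0.05 to 0.317). Without ref6C replicate 3, 5 members were called lower. Of 16 mature pollen genes 12 were lower and 0 higher, with a median of -1.67 beside -1.65 for the members. All 6 tested genes of microspores and early pollen were lower, and of 17 anther and tapetum genes 12 were lower and 2 higher. The part of these lists in the member results was not tested.

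The last comparison sets elf6-3ref6Cjmj13G against elf6-3ref6C, which differ in name by jmj13G. ELF6 also differed between them, at 8.67 ± 1.03 CPM in elf6-3ref6Cjmj13G and 2.53 ± 0.138 in elf6-3ref6C, a log2 fold change of 1.76 ± 0.10 (edgeR adjusted p = 3.17e-13). Of 16 mature pollen genes 7 were higher and 0 lower, with a median of 0.50. The part of either in the member results was not tested. AGL94 and AGL104 were higher in elf6-3ref6Cjmj13G and the other 3 members did not pass. AGL94 was at 2.31 ± 0.287 CPM in elf6-3ref6Cjmj13G and 1.68 ± 0.220 in elf6-3ref6C, with a log2 fold change of 0.47 ± 0.14 (edgeR adjusted p = 0.0218). AGL104 was at 2.26 ± 0.276 CPM in elf6-3ref6Cjmj13G and 1.54 ± 0.161 in elf6-3ref6C, with 0.55 ± 0.15 (0.00836). For both genes the libraries did not overlap, again with no share over all genes given. In this comparison 20.0% of tested genes were called and 8.58% were called higher. Both calls depended on single libraries. AGL94 ended with DESeq2 (adjusted p = 0.0749) and without elf6-3ref6Cjmj13G replicate 1 (0.147), elf6-3ref6C replicate 1 (0.0754) or elf6-3ref6C replicate 3 (0.114), and AGL104 ended without elf6-3ref6Cjmj13G replicate 2 (0.0561) or elf6-3ref6C replicate 3 (0.0695). The other members gave 0.07 ± 0.05 for AGL30, 0.12 ± 0.10 for AGL65 and -0.08 ± 0.25 for AGL66 (adjusted p = 0.422, 0.437 and 0.886).

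Because complexes pair a P with an S protein, the summed FPKM of each class was compared within libraries. The P class summed to 18.85 ± 0.497 FPKM in elf6-3ref6Cjmj13G, 17.1 ± 0.849 in elf6-3ref6C, 24.45 ± 0.362 in ref6C and 20.05 ± 0.123 in ref6-3, against 26.5 ± 0.590 in WT (SD, n = 3). The S class summed to 2.88 ± 0.250 FPKM in elf6-3ref6Cjmj13G, 2.11 ± 0.173 in elf6-3ref6C, 7.21 ± 0.638 in ref6C and 3.46 ± 0.518 in ref6-3, against 8.32 ± 0.208 in WT. The ratio of P to S transcript was 6.58 ± 0.544 in elf6-3ref6Cjmj13G, 8.13 ± 0.282 in elf6-3ref6C, 3.41 ± 0.358 in ref6C and 5.89 ± 0.877 in ref6-3, against 3.18 ± 0.0801 in WT. Every library of elf6-3ref6Cjmj13G, elf6-3ref6C and ref6-3 lay above every WT library, while ref6C overlapped WT. A two-sided exact permutation test of the log2 ratio gave p = 0.1 for each of these 3 genotypes, the smallest p that 3 against 3 libraries allow, and p = 0.4 for ref6C. The ratio was also higher in elf6-3ref6C than in ref6C, lower in ref6C than in ref6-3 and lower in elf6-3ref6Cjmj13G than in elf6-3ref6C, without overlap (exact p = 0.1 each). The largest part of the P sum was AGL30, with 11.1 FPKM in elf6-3ref6C and 17.2 in WT, and the P members did not move together. In elf6-3ref6C the log2 fold change over WT was -2.00 for AGL94, -0.60 for AGL30 and 0.14 for AGL65. The S members had -2.25 for AGL66 and -1.84 for AGL104 there. The ratio therefore does not describe every member of a class. A ratio of transcripts says nothing of the amounts of protein.

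Balance within the classes shifted as well. AGL65 over AGL94 was at 3.54 ± 0.682 in elf6-3ref6Cjmj13G, 4.38 ± 0.219 in elf6-3ref6C, 1.52 ± 0.116 in ref6C and 2.36 ± 0.480 in ref6-3, against 1.01 ± 0.0727 in WT. All mutant libraries lay above the WT libraries (exact permutation p = 0.1 for each mutant, n = 3 each). AGL104 over AGL66 was at 5.22 ± 1.24 in elf6-3ref6Cjmj13G, 3.31 ± 0.361 in elf6-3ref6C, 3.57 ± 0.0697 in ref6C and 2.85 ± 0.556 in ref6-3, against 2.47 ± 0.279 in WT; ref6-3 overlapped WT (exact permutation p = 0.5) and the other mutants did not (p = 0.1 each). These ratios divide by AGL66 counts as low as 15 reads. AGL30 took 54.3% of the summed FPKM in elf6-3ref6Cjmj13G, 57.6% in elf6-3ref6C, 46.05% in ref6C and 54.5% in ref6-3, against 49.55% in WT.

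**Figure D3:**
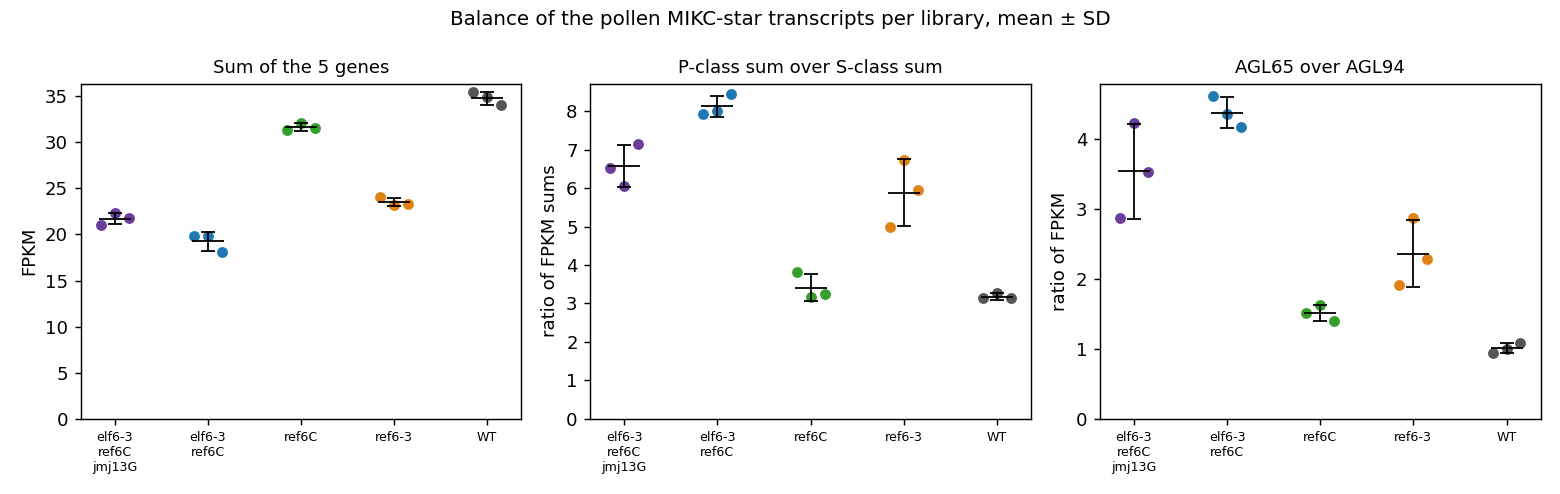
Within-library balance of the member transcripts by genotype; points are libraries, bars the mean ± SD of 3, and y axes start at 0. The P over S ratio lies between 7.93 and 8.46 in elf6-3ref6C and between 3.13 and 3.27 in WT, and ref6C overlaps WT.

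Of the other MIKC-star genes, AGL33 had 0 counts in all 15 libraries and AGL67 was sparse. AGL67 had 8, 5 and 9 reads in elf6-3ref6Cjmj13G, 1, 0 and 0 in elf6-3ref6C, 4, 7 and 7 in ref6C, and 7, 7 and 8 in ref6-3, against 7, 5 and 7 in WT. Only the elf6-3ref6C libraries lay apart from the others. The level in elf6-3ref6C was 0.0553 times that of WT (95% exact interval 0.00133 to 0.348, counting error only; exact permutation p = 0.1, the smallest possible). AGL67 did not pass the filter; edgeR with no filter gave -3.73 ± 1.0 for elf6-3ref6C against WT (adjusted p = 0.000749) and 3.96 ± 0.97 for elf6-3ref6Cjmj13G against elf6-3ref6C (0.00114). AGL67 lies 3646 bases from AGL66 with no gene wholly between them. It overlaps AT1G77960 on the opposite strand over 1174 bases, and AT1G77960 had 5, 6 and 5 reads in elf6-3ref6Cjmj13G, 1, 1 and 5 in elf6-3ref6C, 6, 8 and 11 in ref6C, and 12, 17 and 20 in ref6-3, against 8, 14 and 7 in WT. AT1G77960 was called lower in elf6-3ref6C, as AGL67 was without the filter. Its log2 fold change there was -1.89 over WT (edgeR adjusted p = 0.00286) and -1.76 over ref6C (0.00728). In ref6-3 AT1G77960 was called higher than WT (log2 fold change 0.91, edgeR adjusted p = 0.0435), where AGL67 had 7, 7 and 8 reads, against 7, 5 and 7 in WT. Whether counting used strand is not stated in the labels or headers, so reads of the pair cannot be told apart.

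Other transcription regulators of pollen, a list of 13 genes of which 12 were tested, were described beside the members. In elf6-3ref6Cjmj13G 9 were lower and 1 higher, in elf6-3ref6C 9 were lower, in ref6C 3 and in ref6-3 8, with none higher in these last genotypes. The list's median log2 fold change was -0.72 in elf6-3ref6Cjmj13G, -0.53 in elf6-3ref6C, -0.08 in ref6C and -0.36 in ref6-3. AGL18, a MADS gene expressed in pollen and elsewhere, was at 5.57 CPM in elf6-3ref6Cjmj13G, 5.33 in elf6-3ref6C, 7.58 in ref6C and 9.23 in ref6-3, against 23.8 in WT. In ref6C its log2 fold change was -1.65 ± 0.06 (edgeR adjusted p = 6.31e-18). WRKY34, which acts in pollen development, was at 2.94 CPM in elf6-3ref6Cjmj13G, 2.77 in elf6-3ref6C, 6.36 in ref6C and 4.57 in ref6-3, against 6.02 in WT, and did not pass in ref6C (0.08 ± 0.10, adjusted p = 0.574). DUO1, which drives the division and fate of the germ cell, had -1.58 ± 0.27 in elf6-3ref6Cjmj13G, -2.01 ± 0.29 in elf6-3ref6C and -0.81 ± 0.25 in ref6-3 (edgeR adjusted p = 9.85e-06, 7.85e-07 and 0.0107), against -0.16 ± 0.22 in ref6C (0.6). AGL29 was the gene called higher in elf6-3ref6Cjmj13G (0.75 ± 0.26, adjusted p = 0.013).

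Many markers of pollen stages were also lower in elf6-3ref6Cjmj13G, elf6-3ref6C and ref6-3, and fewer in ref6C. Their part in the member results was not tested. Of all tested genes, 34.4% were called lower in elf6-3ref6Cjmj13G, 34.8% in elf6-3ref6C, 20.4% in ref6C and 18.5% in ref6-3. Of 16 mature pollen and pollen tube genes, 16 were lower in elf6-3ref6Cjmj13G, elf6-3ref6C and ref6-3 and 13 in ref6C, and none was higher. Their summed CPM was 326 ± 6.25 in elf6-3ref6Cjmj13G, 228 ± 4.50 in elf6-3ref6C, 773.5 ± 15.4 in ref6C and 295 ± 10.03 in ref6-3, against 940 ± 24.1 in WT. Their median log2 fold change was -1.58 in elf6-3ref6Cjmj13G, beside -1.29 for the members, -2.22 in elf6-3ref6C (members -1.84), -0.30 in ref6C (members -0.23) and -1.76 in ref6-3 (members -1.09). In ref6C the list was uneven. There 5 of its 16 genes were at least 2-fold lower, against 0 of the 5 members: STP11 at -5.22 ± 0.41, BCP1 at -3.82 ± 0.31, CPK17 at -3.26 ± 0.26, ANX2 at -2.93 ± 0.28 and CPK34 at -2.21 ± 0.32. Of 7 genes of microspores and early pollen 6 were tested, and 5 were lower in elf6-3ref6Cjmj13G, 5 in elf6-3ref6C, 1 in ref6C and 6 in ref6-3. Their summed CPM was 59.9 ± 1.06 in elf6-3ref6Cjmj13G, 58.3 ± 2.27 in elf6-3ref6C, 104 ± 0.412 in ref6C and 100.36 ± 2.61 in ref6-3, against 137 ± 4.82 in WT. Of 3 sperm cell genes 2 were tested; PCR11 was lower in all 4 mutants and GCS1 did not pass in any. GEX2, which was not tested, had no read in any library of elf6-3ref6C, ref6C or ref6-3, and PCR11 had none in ref6-3. The other genotypes also had libraries without GEX2 reads. It ranged from 0 to 0.656 CPM in elf6-3ref6Cjmj13G and from 0 to 1.55 in WT, so its absence sets no mutant apart.

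Anther and tapetum genes mark the tissue that surrounds the pollen, and their part in the member results was not tested either. Of 17 genes, 15 were lower in elf6-3ref6Cjmj13G, 15 in elf6-3ref6C, 16 in ref6C and 3 in ref6-3, where 3 were higher. Their summed CPM was 1482 ± 4.80 in elf6-3ref6Cjmj13G, 1464 ± 20.6 in elf6-3ref6C, 1713.5 ± 52.0 in ref6C and 2428 ± 14.4 in ref6-3, against 2424 ± 50.4 in WT. The median of the anther list was -0.765 in elf6-3ref6Cjmj13G (members -1.29), -0.775 in elf6-3ref6C (members -1.84), -0.37 in ref6C (members -0.23) and -0.04 in ref6-3 (members -1.09). Of 12 floral MIKC-c MADS genes, 6 were lower and 2 higher in elf6-3ref6Cjmj13G, 9 and 1 in elf6-3ref6C, 3 and 4 in ref6C, and 7 and 2 in ref6-3, with medians between -0.24 and 0.04. Without ref6C replicate 3 the ref6C counts were 13 lower for mature pollen, 3 for the pollen regulators, 1 for early pollen and 16 for the anther list, and 2 lower and 3 higher for the floral MADS genes.

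**Figure D4:**
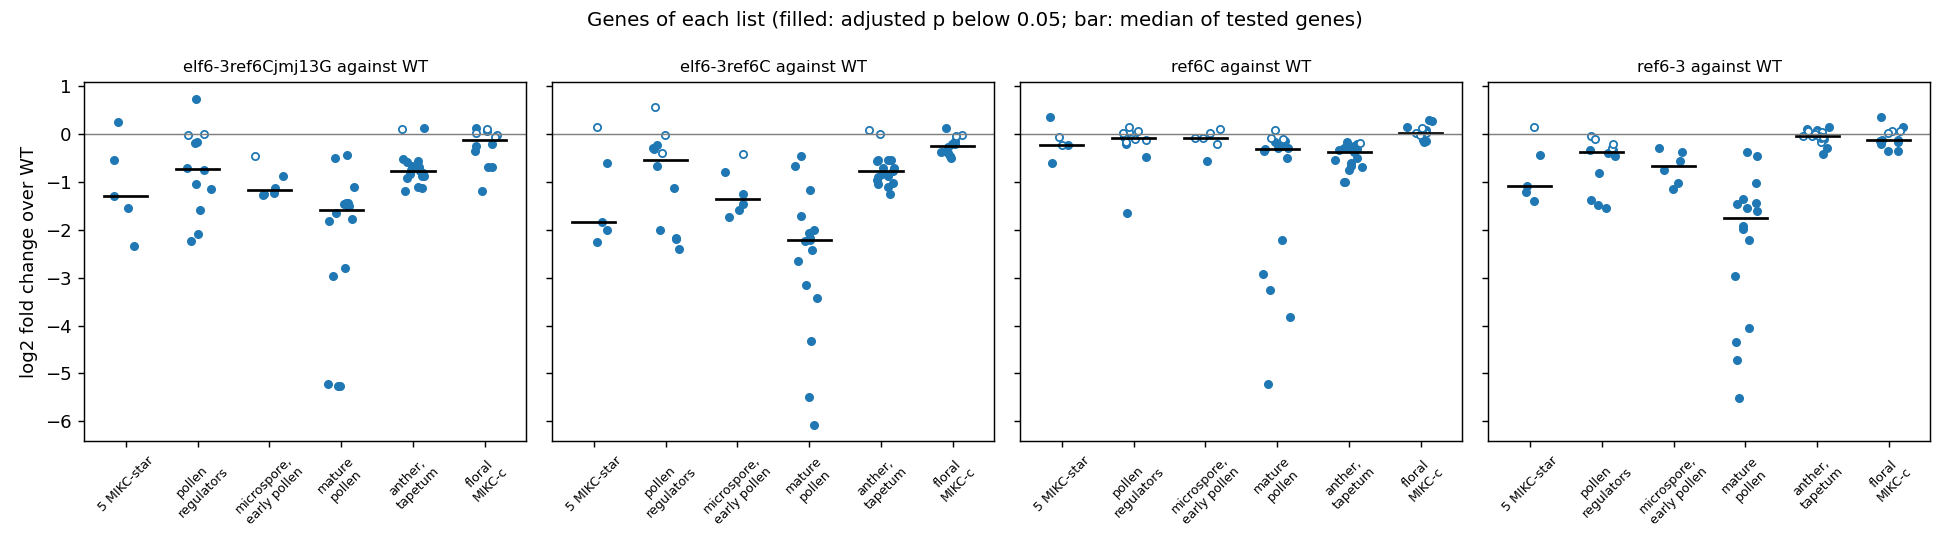
Log2 fold change over WT (y axis) of each tested gene of each list (x axis), 1 panel per mutant; filled points passed edgeR's test and bars are list medians. The member median is -0.23 in ref6C, -1.09 in ref6-3 and -1.84 in elf6-3ref6C. The anther and tapetum median is -0.37 in ref6C, -0.04 in ref6-3 and -0.775 in elf6-3ref6C.

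Across the 15 libraries, which share 5 genotypes, AGL30, AGL66, AGL94 and AGL104 followed each other and AGL65 did not. Pearson's r of log2 CPM was 0.965 for AGL30 and AGL66, 0.962 for AGL94 and AGL104, 0.953 for AGL66 and AGL94, 0.937 for AGL30 and AGL94, 0.915 for AGL30 and AGL104, and 0.913 for AGL66 and AGL104. AGL65 had r between -0.27 and 0.01 with the others. Genes were ranked by r where their mean log2 CPM reached 1, and those most like AGL94 were the actin gene ACT12 (r = 0.993), the cytochrome c gene CYTC-2 (0.990) and GGPS2 (0.989), which encodes a geranylgeranyl pyrophosphate synthase. For AGL104 they were AT5G39493 (0.993), of the self-incompatibility protein S1 family, AT1G52343 (0.992) and COBL6 (0.989). For AGL66 they were SLD2 (0.987), DAN1 (0.985) and AT3G48460 (0.984), and for AGL30 ESK1 (0.988), UGE3 (0.985) and GH9A3 (0.984). The lower limit of 0.9 was reached by 572 of 18426 ranked genes with AGL30, 899 with AGL94 and 619 with AGL104. With AGL66 724 of 18427 reached it, and with AGL65 1 gene did, AT2G45250 (0.925). Over the 5 genotype means CYTC-2 led for AGL94, and a gene not named here led for each of the other members. These values describe the 15 libraries, which differ mainly by genotype.

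Of the 10 flanking protein-coding genes 8 were tested, and 3 were lower and 3 higher in elf6-3ref6Cjmj13G, 5 and 2 in elf6-3ref6C, 3 and 2 in ref6C, and 2 and 2 in ref6-3. Among all tested genes 66.4% were called in elf6-3ref6Cjmj13G, 68.5% in elf6-3ref6C, 38.8% in ref6C and 34.7% in ref6-3. With so few neighbours, these counts do not set them apart from other genes. The following neighbours were chosen after their values were seen. AT1G22140, 317 bases from AGL104 on the side of its start, had log2 fold changes of -1.11 in elf6-3ref6Cjmj13G, -1.32 in elf6-3ref6C, -1.52 in ref6C and -0.95 in ref6-3, and so was lowest where AGL104 was not called. AT1G77990, a sulfate transporter gene 580 bases from AGL66 on the side of its start, had -1.08 in elf6-3ref6Cjmj13G, -1.11 in elf6-3ref6C and -0.50 in ref6C, and did not pass in ref6-3 (0.11, edgeR adjusted p = 0.246), where AGL66 was at least 2-fold lower. AT1G69550, 269 bases from AGL94 on the side of its start, was between -0.11 and 0.27 in the 4 mutants. AT1G69530, 1462 bases from AGL94 on its other side, had 0.22 in elf6-3ref6Cjmj13G, -0.28 in elf6-3ref6C, 0.11 in ref6C and -0.96 in ref6-3, all of which passed edgeR's test. It was higher in ref6C than in ref6-3 (1.07), lower in elf6-3ref6C than in ref6C (-0.39) and higher in elf6-3ref6Cjmj13G than in elf6-3ref6C (0.50), directions that AGL94 also had in these 3 comparisons; in ref6C and elf6-3ref6Cjmj13G against WT its sign was the opposite of AGL94's.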

How the data were processed

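Libraries of total RNA from unopened flowers were stranded, per the labels' protocols. The authors deposited whole-number counts per gene and library, FPKM values attributed to RSEM per the file headers, and their own log2 fold changes and p-values, which leave out ref6C replicate 3. STAR, DESeq2, RSEM 1.2.22 and the build TAIR10 are named, per the submitters' processing notes, without settings. Groups and replicate numbers come from the sample titles. Counts were tested in R 4.3.3 by the quasi-likelihood F-test of edgeR 4.0.16 (TMM, filterByExpr, trended dispersion), all 15 libraries in 1 fit, for 7 comparisons. Replicate libraries had chi-square values of 1.41 to 2.81 per degree of freedom against Poisson noise, and each was used as a replicate. Such spread does not tell separate plants from separate preparations of the same RNA. The coefficient of variation that edgeR terms biological was 2.51%. SEs are the size of the log2 fold change divided by the root of F. Ratios of deposited FPKM were compared by two-sided exact permutation of the 6 libraries. The test was tried on simulated data. Alternatives were relative log expression size factors, DESeq2 1.42.0, no filter, 1 CPM in 3 libraries, a replicate block, the 6 libraries compared alone, and leaving out each library; list counts without ref6C replicate 3 were added after seeing the data.

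The members and the gene lists were chosen with earlier results of these data known. Of 90 list genes written, 78 were kept, and 12 were left out because the tables give their identifier no such name. The text names the members, AGL67 and AGL33, the targeted demethylases, up to 3 called genes of a list by adjusted p, the 3 genes most correlated with each member, and genes said to be chosen after their values were seen. DUO1, AGL29, GCS1, GEX2, BCP1, ANX2 and CPK34 were chosen after their values were seen. Sequences and positions are from RefSeq TAIR10.1; the files hold no coordinates.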

Additional observations from a re-analysis of the deposited data

How the results depend on the processing

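Under the 6 alternative settings and the 15 fits that leave out a library, the number of members called stayed within 1.5 times its value in 6 of the 7 comparisons. The exception was elf6-3ref6Cjmj13G against elf6-3ref6C, with 2 members called, where DESeq2 called 1 and leaving out a library gave 0 to 2. The number of all genes called stayed within 1.5 times in all 7 comparisons. Of the member log2 fold changes under these alternatives, 712 kept direction and side of the threshold, 19 lost the call, 3 gained one and 1 turned. The 1 that turned was AGL104 in ref6C against WT, not called in any setting, with -0.12 to 0.0085 when a library was left out; the cause was not tested.

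The replicate numbers do not pair the libraries: deviations from the group means correlated at -0.107 to 0.101 for the same number (30 pairs) and -0.135 to 0.129 for different numbers (60 pairs). With the number as a replicate block the members called were 5 in elf6-3ref6Cjmj13G, 4 in elf6-3ref6C, 3 in ref6C and 4 in ref6-3, each over WT, then 4 between the REF6 alleles, 5 in elf6-3ref6C over ref6C and 2 in elf6-3ref6Cjmj13G over elf6-3ref6C, as without it; it changed no member's call. Depth limits AGL66, with 15 to 22 reads a library in elf6-3ref6Cjmj13G and elf6-3ref6C, and AGL67, with 0 to 9 reads.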
